A study of Homo sapiens with 4 samples.

Results

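The long noncoding RNAs described here are the expressed genes with a LINC (long intergenic noncoding) or SNHG (small nucleolar RNA host gene) symbol, together with MALAT1, NEAT1, GAS5 and MEG3, in A549 cells with and without overexpression of USP12. They were chosen by name and by a sum of at least 100 raw counts over the 4 libraries, which 96 of the 50868 genes in the count tables met. Of these, 76 were LINC genes, 16 were SNHG genes, and 4 were the RNAs named singly. A further 917 genes matched the names but had fewer than 100 counts, and 701 of them had 0. H19, the maternally expressed RNA next to IGF2, was also looked for by name, had 0 counts in every library, and is not among the 96. At the threshold, LINC01305 had 101 counts and was kept, and LINC01091 had 99 and was not.

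A549 is an established human lung adenocarcinoma line. The study compared control A549 cells, which carry the empty vector, with A549 cells that overexpress USP12, a deubiquitinase that removes ubiquitin from other proteins, and its stated purpose was to see how gene expression differs between them. Each group had 2 libraries, prepared with a stranded mRNA kit. The labels do not say whether the libraries came from separate cultures, so the p-values measure only the spread between these libraries, which may be technical.

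Long noncoding RNAs are transcribed and mostly spliced and polyadenylated like messenger RNAs, but they are thought to act without being translated into a long protein. MALAT1 is concentrated in nuclear speckles, which store splicing factors, and NEAT1 is the scaffold on which paraspeckles form. The SNHG genes and GAS5 carry small nucleolar RNAs (snoRNAs), the guides for modification of ribosomal and spliceosomal RNA, in their introns, and their spliced exons are often short-lived. MEG3 is transcribed from the maternal copy of the imprinted DLK1 to DIO3 region. MALAT1 takes its name from lung adenocarcinoma, in which it was described.

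The libraries held between 14280081 and 16305356 counts, and 3 counts, taken as the floor of a library, corresponded to between 0.166 and 0.227 CPM (counts relative to the library total, scaled by edgeR's TMM factors). This floor covers counting error only. Counts of USP12 itself were 201 and 621 in control and 24235 and 32274 in overexpressing cells. Its log2 fold change was 6.32, with an SE of 0.57 and a Benjamini-Hochberg adjusted p of 0.0975 by the quasi-likelihood test of edgeR. The control libraries differed from each other more than the USP12 libraries did. Across the 15222 genes tested, the SD of the log2 ratio between libraries of a group was 1.32 for control and 0.62 for USP12, and for the 95 tested members it was 1.15 and 0.54. The column heading of control 1 carries another date-like prefix than those of the other 3 libraries, and what that prefix stands for is not given in the sources used here. All 8 epithelial and A549 marker genes examined were at 1 CPM or more in every library, with a sum between 9960 and 13200 CPM in control and between 8590 and 9130 CPM in USP12 libraries. Of 10 markers of endothelial, stromal and immune cells, 2 (CD14 and COL1A1) were at 1 CPM or more in every library and 4 were under it in every library. Their sum was between 17.5 and 64.5 CPM in control and between 29.4 and 33.9 CPM in USP12 libraries, and CD3E had 0 counts throughout. The endothelial gene CDH5 had 136 and 96 counts in control and 2 and 5 in USP12 libraries. The part of these markers in the results below was not tested.

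The sequences at the start of 3 members are shown first, because LINC00460, LINC01508 and MEG3 had the 3 largest positive log2 fold changes among the members. Each is the RefSeq window of 250 bases before and 50 bases after the annotated start, in GRCh38.p14, given 5′ to 3′ on the strand of the gene, with matches to the searched motifs in capitals. LINC00460 is on the plus strand at chr13:106376314-106376613, MEG3 on the plus strand at chr14:100825882-100826181, and LINC01508 on the minus strand at chr9:90433440-90433739.
LINC00460: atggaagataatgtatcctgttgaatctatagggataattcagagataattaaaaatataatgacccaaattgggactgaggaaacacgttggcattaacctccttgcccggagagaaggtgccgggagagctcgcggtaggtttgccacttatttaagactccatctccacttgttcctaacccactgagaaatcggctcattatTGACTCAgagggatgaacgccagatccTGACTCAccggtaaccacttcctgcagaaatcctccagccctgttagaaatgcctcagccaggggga
MEG3: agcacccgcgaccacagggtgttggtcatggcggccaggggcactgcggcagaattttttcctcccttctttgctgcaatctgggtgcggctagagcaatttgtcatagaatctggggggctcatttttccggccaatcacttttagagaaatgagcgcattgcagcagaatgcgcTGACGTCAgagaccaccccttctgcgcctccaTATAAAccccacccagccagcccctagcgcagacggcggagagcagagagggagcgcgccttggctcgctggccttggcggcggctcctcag
LINC01508: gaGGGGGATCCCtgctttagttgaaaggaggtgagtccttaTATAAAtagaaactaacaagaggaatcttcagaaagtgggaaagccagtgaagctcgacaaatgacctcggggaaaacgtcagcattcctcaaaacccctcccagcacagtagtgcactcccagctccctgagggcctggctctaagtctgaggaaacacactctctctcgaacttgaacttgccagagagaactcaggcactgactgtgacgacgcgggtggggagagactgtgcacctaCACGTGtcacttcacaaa

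The RefSeq starts of LINC00460 and MEG3 lie inside the longer gene bodies of GENCODE 44. The LINC00460 window held 2 AP-1 motifs of the same letters, and the MEG3 window held 1 CRE and 1 TATA box. The LINC01508 window held 1 match to the NF-κB consensus, 1 TATA box and 1 E-box. Of these, the NF-κB match and the TATA letters lay near the 5′ end of the window, far from the start. The E-box lay after the start. All motifs were searched on both strands, and matches that overlap were each counted. RefSeq windows were used for 76 of the 96 members. The AP-1 motif, which reads TGACTCA, was in 7.89% of the windows of members, against 4.95% of all 35116 RefSeq windows. CRE, which reads TGACGTCA, was in 3.95% of these windows and in 1.85% of all windows. The TATA box was in 22.4% against 11.5%, with the letters TATAAA required in full. For the E-box, whose letters are CACGTG, the shares were 11.8% and 7.26%. The ISRE was in 3.95% against 3.57%, and the NF-κB consensus in 11.8% against 11.3%. These matches describe the letters in the windows.

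At an adjusted p under 0.05 (edgeR, quasi-likelihood, Benjamini-Hochberg over all genes), 0 members were lower and 0 were higher in USP12 cells, and the same was true of 0.0% of all tested genes in each direction. The smallest adjusted p of a member was 0.270, and 11 members had an unadjusted p under 0.05. The DESeq2 Wald test gave 0 lower and 4 higher members at that adjusted threshold, where it called 1.86% of all genes lower and 0.891% higher. The edgeR exact test gave 1 lower and 4 higher members, where it called 1.72% of all genes lower and 1.1% higher. In each of these tests the 4 were LINC00460, LINC01116, LINC01508 and MEG3, and the lower one was LINC01559. Of the 96 members, 95 passed the filter on low counts and were tested. LINC00460 and LINC01508 had fewer than 10 counts in both control libraries, and LINC01559 in both USP12 libraries, so these 3 entered the test through the group in which they were high. LINC01305, with 3 and 12 counts in control, and LINC00973, with 7 and 31, could not have passed on their control libraries alone either. The log2 fold changes ran from -3.32 to 4.40, and 76 of the 95 lay between -1 and 1. In a bulk sample, fewer cells that express an RNA and less of it per cell cannot be told apart.

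**Figure D1:**
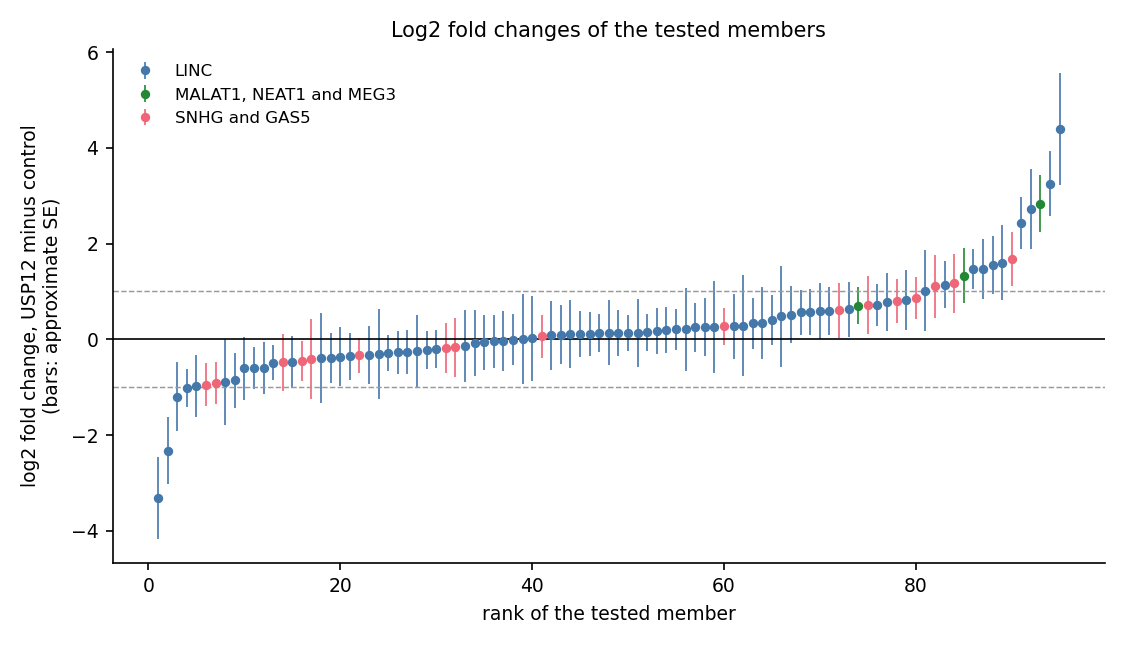
The log2 fold changes (USP12 minus control, vertical axis) of the 95 tested members are plotted in rank order (horizontal axis), with bars for the approximate SE, dashed lines at -1 and 1, and colours for the LINC RNAs, the SNHG RNAs with GAS5, and MALAT1, NEAT1 and MEG3. The 76 members in the middle lie between the dashed lines, and the ends run to -3.32 and 4.40.

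When a log2 fold change of at least 1 in size was required together with an unadjusted p no higher than 0.05, 3 members were lower and 8 were higher in USP12 cells. By this criterion 4.41% of all tested genes were lower and 2.92% higher, so 3 of 95 lies below the share for all genes and 8 of 95 above it. With at least 10 counts required in every library, 2 members were lower and 5 higher. That filter leaves out LINC00460, LINC01508 and LINC01305, which were low in control, and LINC01559, low in USP12 libraries. Part of the 8 therefore rests on members that passed the main filter through their USP12 libraries. The USP12 pair lay entirely below the control pair in 15 members (15.8%, with 17.0% of all tested genes) and entirely above it in 28 (29.5%, with 19.5% of all tested genes). The median log2 fold change of the members was 0.13, and that of all tested genes was -0.06. The 1180 tested genes that GENCODE release 44 lists as lncRNA had a median of 0.27. Of these 1180 genes, 23 were lower (1.95%) and 67 higher (5.68%) by the same criterion. Their USP12 pair lay entirely below the control pair in 10.8% and entirely above it in 30.9%. The share of members entirely above, 29.5%, was thus close to that of lncRNAs in general. The counts of members by the criterion depend on single libraries. They rose in both directions without either control library and fell without either USP12 library. The share of all tested genes was not taken in these fits, so the changes are not read as particular to the members.

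Among the LINC RNAs, the largest positive difference was that of LINC00460 (ENSG00000233532, chr13:106374477-106384315), an intergenic RNA that has been studied in several carcinomas. It had 0 and 6 counts in control and 57 and 55 in USP12 libraries, or 0 and 0.332 CPM against 4.10 and 3.81 CPM. Both USP12 libraries lay far above both control libraries, and 1 control library held no read of it. The log2 fold change was 4.40 (SE 1.17, edgeR adjusted p = 0.348), a fitted value that depends on how 0 counts are treated, and it was 3.54 against control 2 alone. LINC01508 (ENSG00000231107, chr9:90300885-90433566) had 6 and 8 counts in control and 59 and 64 in USP12 libraries, 0.454 and 0.443 CPM against 4.25 and 4.43 CPM. Within each group its libraries were nearly equal, and the groups were far apart. Its log2 fold change was 3.25 (SE 0.68, edgeR adjusted p = 0.270), with 3.26 against control 1 alone and 3.27 against control 2 alone.

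MEG3 (ENSG00000214548, chr14:100779410-100861031), the imprinted RNA, had 29 and 21 counts in control and 187 and 151 in USP12 libraries, 2.19 and 1.16 CPM against 13.5 and 10.5 CPM. The log2 fold change of MEG3 was 2.84 (SE 0.60, edgeR adjusted p = 0.270), with 2.47 against control 1 alone and 3.35 against control 2 alone. The groups did not overlap, and the USP12 libraries were the higher ones. MEG3 shares exon sequence with MIR493HG on its own strand, so some of these counts could belong to that gene. DLK1 and RTL1, coding genes of the same imprinted locus, were too low to compare at this depth, as DLK1 had at most 5 counts in a library and RTL1 was under 1 CPM in every library.

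LINC01116 (ENSG00000163364, chr2:176611437-176637931), which lies on the far side of MTX2 from the HOXD cluster, had 23 and 28 counts in control and 124 and 128 in USP12 libraries, 1.74 and 1.55 CPM against 8.93 and 8.87 CPM. This gave a log2 fold change of 2.43 (SE 0.54, edgeR adjusted p = 0.293), and each control alone gave a similar value, 2.38 and 2.51. LINC01117, annotated over it on the opposite strand, had at most 10 counts in a library. LINC01305 (ENSG00000231453, chr2:174326027-174330643) had 3 and 12 counts in control, the first of them at the floor, and 50 and 36 in USP12 libraries. Its log2 fold change was 2.72 (SE 0.83, edgeR adjusted p = 0.436). Both of its USP12 libraries were above both control libraries.

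LINC00294 (ENSG00000280798, chr11:33076149-33079454) had the highest counts of the 6 higher LINC RNAs that met the criterion, with 179 and 265 counts in control and 609 and 497 in USP12 libraries. Its log2 fold change was 1.47 (SE 0.42, edgeR adjusted p = 0.401), and its exons overlap CSTF3, a gene for a cleavage and polyadenylation factor, on the opposite strand. CSTF3 had 13.0 and 23.3 CPM in control and 22.0 and 18.8 CPM in USP12 libraries, so its groups overlapped. LINC01139 had 28 and 24 counts in control and 66 and 78 in USP12 libraries, a log2 fold change of 1.56 (SE 0.61, edgeR adjusted p = 0.615). In LINC00973, LINC00261 and LINC00857 the groups did not overlap either, but control 1 was well below control 2. The value of LINC00973 was 2.71 against control 1 alone and 1.01 against control 2 alone. LINC00261, which is transcribed beside FOXA2, had 29 and 110 counts in control and 155 and 173 in USP12 libraries, so its log2 fold change was 2.42 against control 1 alone and 0.93 against control 2 alone.

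**Figure D2:**
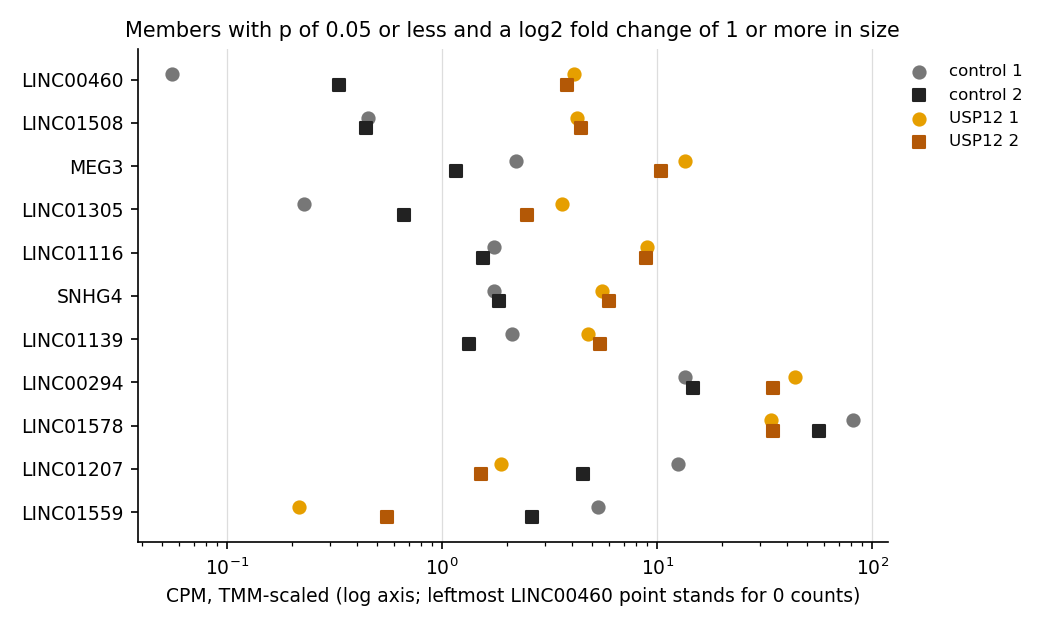
The CPM of each of the 4 libraries (horizontal log axis) are plotted for the 11 members that differ by at least 1 on the log2 scale at an unadjusted p no higher than 0.05, ordered from the highest to the lowest log2 fold change, with grey and black points for control and orange and brown points for USP12 libraries. In the 8 upper rows both USP12 points lie to the right of both control points, and in the 3 lower rows to the left.

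On the lower side, LINC01559 (ENSG00000180861, chr12:13371089-13387167) had 70 and 47 counts in control and 3 and 8 in USP12 libraries, 5.30 and 2.60 CPM against 0.216 and 0.554 CPM. The USP12 libraries were near the floor and did not overlap the control libraries. The log2 fold change was -3.32 (SE 0.86, edgeR adjusted p = 0.332), with -3.72 against control 1 alone and -2.72 against control 2 alone. LINC01207 (ENSG00000248771, chr4:164754064-164803795) had 166 and 82 counts in control and 26 and 22 in USP12 libraries, a log2 fold change of -2.32 (SE 0.70, edgeR adjusted p = 0.428). Against control 1 alone it was -2.85 and against control 2 alone -1.42. GENCODE 44 lists this gene as SMIM31, a protein-coding gene for a small integral membrane protein, so it is a noncoding RNA only by the older symbol in the count tables.

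LINC01578 (ENSG00000272888, chr15:92819540-92899701) is now called CHASERR, an RNA known to restrain the neighbouring chromatin remodeller gene CHD2. It had 1082 and 1019 counts in control and 468 and 501 in USP12 libraries, 81.9 and 56.5 CPM against 33.7 and 34.7 CPM, and a log2 fold change of -1.02 (SE 0.39, edgeR adjusted p = 0.611). Its groups did not overlap, and the difference against control 2 alone was -0.72. CHD2, with which it shares exon sequence on the same strand, had 51.4 and 91.2 CPM in control and 32.5 and 77.4 CPM in USP12 libraries, which overlapped (log2 fold change -0.38, SE 0.55, edgeR adjusted p = 0.961). LINC01312, the member that was not tested, had 3 and 120 counts in control and 0 in both USP12 libraries. Set against the floor of 3 counts per library, the mean of its control libraries was at least 16.2-fold higher than the USP12 libraries, but control 1 alone was at that floor.

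The direction of many members depended on which control library was used. Against control 1 alone and control 2 alone, 52 of the 95 tested members had the same sign (34 above both and 18 below both), and 43 had opposite signs. In 60 members the log2 difference between the control libraries was larger than the log2 fold change between the groups. These 2 counts were not taken over all genes. The control libraries differed by more than 1 on the log2 scale in 38.9% of the members and 43.5% of all tested genes. That spread was thus not particular to the members. Against each control library alone, 9 members had a log2 fold change of 1 or more (9.47%, with 4.18% of all tested genes) and 2 had -1 or less (2.11%, with 3.97% of all tested genes). Of the tested genes listed as lncRNA, 12.4% had 1 or more and 3.14% had -1 or less, so the higher share was not particular to the members. The 9 were the 8 higher members of the criterion and LINC00973, and the 2 were LINC01207 and LINC01559. Among the 9, LINC00460, LINC01508, LINC01305 and LINC00973 could not have passed the filter on their control libraries alone. LINC01559 could not have passed on its USP12 libraries alone. Both shares of the members thus rest in part on the group in which a member was high. The median of the members was 0.34 against control 1 alone and 0.22 against control 2 alone. LINC00657, now called NORAD, which binds the Pumilio proteins, is an abundant example, with 1369 and 6542 counts in control and 2201 and 3055 in USP12 libraries. Its log2 fold change was 0.86 against control 1 alone and -0.97 against control 2 alone, and its USP12 libraries lay between its control libraries.

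**Figure D3:**
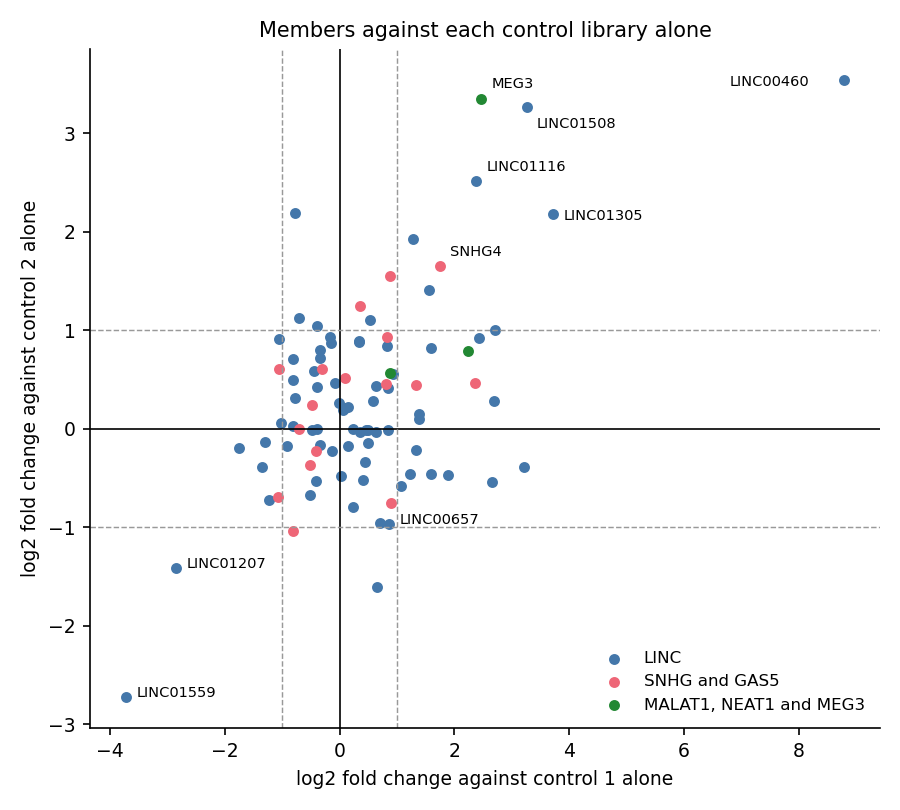
Each point is 1 of the 95 tested members, with its log2 fold change of the USP12 libraries against control 1 alone (horizontal axis) and against control 2 alone (vertical axis), and dashed lines at -1 and 1. The 9 points in the upper right corner beyond both dashed lines include MEG3, LINC01508, LINC01116, LINC01305, LINC00460 and SNHG4, and 43 points lie in the quadrants where the signs differ.

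The snoRNA host RNAs split in both directions. Of the 16 SNHG RNAs and GAS5, 9 had a positive and 8 a negative log2 fold change, with a median of 0.06, and the groups did not overlap in 6 that were higher (35.3%, with 19.5% of all tested genes) and 4 that were lower (23.5%, with 17.0% of all tested genes). The summed level of these 17 RNAs was 525.1 and 422.3 CPM in control and 538.9 and 458.5 CPM in USP12 libraries, so the sums of the groups overlapped. Within the gene bodies of the 16 SNHG genes, GENCODE 44 lists from 1 to 84 snoRNAs each. SNHG4 (ENSG00000281398, chr5:139274102-139284899), host of SNORA74A, had 23 and 33 counts in control and 77 and 86 in USP12 libraries, 1.74 and 1.83 CPM against 5.54 and 5.96 CPM. It was the single host RNA to meet the criterion, with a log2 fold change of 1.68 (SE 0.56, edgeR adjusted p = 0.501) and nearly the same value against each control alone, 1.75 and 1.65. SNHG4 shares exon sequence with MATR3, the gene of a nuclear matrix protein, on its own strand, and with SIL1 on the other. The count tables hold MATR3 under more than 1 identifier, with log2 fold changes of 0.60 (SE 0.69) and -1.50 (SE 0.55), and SIL1 had -0.83 (SE 0.40). Against control 2 alone these 3 values were -0.11, -0.83 and -0.51.

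SNHG3 (242 and 301 counts in control, 520 and 377 in USP12 libraries), host of SNORA73A, had a log2 fold change of 0.86 (SE 0.44, edgeR adjusted p = 0.789). SNHG5, host of SNORD50B, had 374 and 934 counts in control and 1147 and 836 in USP12 libraries, a log2 fold change of 0.81, with 1.34 against control 1 alone and 0.44 against control 2 alone. SNHG14, which carries the long snoRNA arrays of the Prader-Willi region and runs antisense to UBE3A, had 109 and 548 counts in control and 566 and 618 in USP12 libraries. In all 3, the USP12 libraries were the higher ones in CPM. The value of SNHG14 was 2.37 against control 1 alone and 0.46 against control 2 alone, so both of these RNAs depended on the control library used. SNHG10 and SNHG12 also had higher USP12 libraries, with log2 fold changes of 1.17 and 0.60.

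The host RNAs with lower USP12 libraries were SNHG15, SNHG8, SNHG17 and GAS5. SNHG15 (209 and 327 counts in control, 115 and 135 in USP12 libraries) had a log2 fold change of -0.94 (SE 0.44, edgeR adjusted p = 0.748). SNHG8 (348 and 358 against 171 and 175 counts) had one of -0.92 (SE 0.44, edgeR adjusted p = 0.755). Its control libraries were at 26.3 and 19.8 CPM and its USP12 libraries at 12.3 and 12.1 CPM, so the groups did not overlap. GAS5, one of the most abundant host RNAs, had 1317 and 1549 counts in control and 1173 and 903 in USP12 libraries, a log2 fold change of -0.34 (SE 0.37, edgeR adjusted p = 0.941). SNHG7 and SNHG1 show no separation. SNHG7 had 1390 and 585 counts in control and 742 and 653 in USP12 libraries, and SNHG1 had 120 and 508 against 233 and 239, so in both the control libraries lay on either side of the USP12 libraries.

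**Figure D4:**
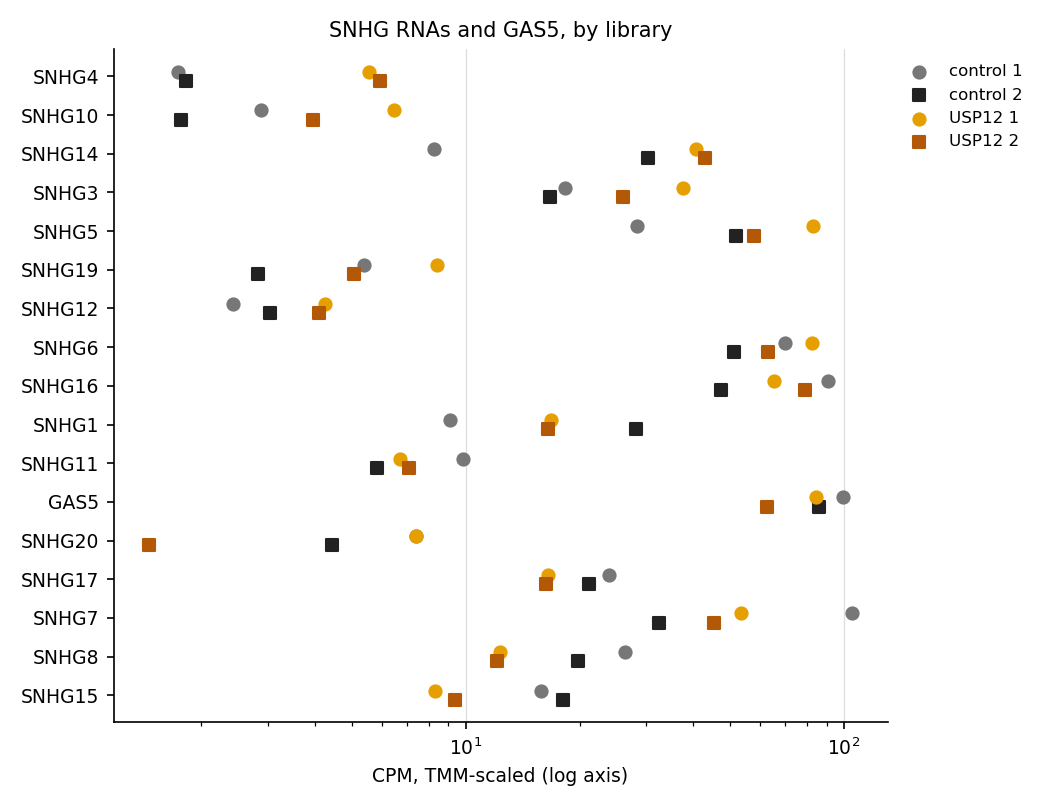
The CPM of each library (horizontal log axis) are plotted for the 16 SNHG RNAs and GAS5, ordered from the highest to the lowest log2 fold change, with grey and black points for control and orange and brown points for USP12 libraries. SNHG4 stands apart at the top with both control points at 1.74 and 1.83 CPM and both USP12 points at 5.54 and 5.96 CPM, and SNHG8 and SNHG15 at the bottom have both USP12 points to the left.

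Many snoRNA host genes begin with a C followed by a run of pyrimidines, the oligopyrimidine start also found in ribosomal protein genes, whose RNAs are controlled together through growth signalling. The 40 bases around the RefSeq start, 15 before and 25 from it on, are given for the 4 host RNAs with such a start, defined as a C that opens a run of at least 5 pyrimidines, and for SNHG8 and GAS5, which lack it at the RefSeq start. The pyrimidine run at the start is in capitals, and the sequences are 5′ to 3′ on the strand of the gene.
SNHG4: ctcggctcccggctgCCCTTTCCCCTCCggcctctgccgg
SNHG12: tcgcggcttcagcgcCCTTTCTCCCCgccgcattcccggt
SNHG19: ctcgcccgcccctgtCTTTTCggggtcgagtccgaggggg
SNHG5: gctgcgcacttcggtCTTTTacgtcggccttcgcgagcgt
SNHG8: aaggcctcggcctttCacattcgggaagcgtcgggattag
GAS5: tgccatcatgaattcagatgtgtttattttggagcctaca

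The runs were 13, 11, 6 and 5 bases long in SNHG4, SNHG12, SNHG19 and SNHG5, and the SNHG8 start has a single C. Such a start was in 4 of the 14 host RNAs with a window (28.6%), in 3 of 60 LINC RNAs (5.0%) and in 4.07% of all RefSeq windows. The log2 fold changes of the 4 host RNAs were between 0.60 and 1.68, with a median of 0.77, and those of the other 10 had a median of -0.26, with 3 positive and 7 negative. The split was seen after the values and carries no test, and it depends on the annotated start, as GAS5 is known as an oligopyrimidine RNA from another start. Across all tested genes with a window, the 543 with such a start had a median of -0.10 and the 9728 without it had -0.08. The 3 LINC RNAs with such a start were LINC00460, LINC01116 and LINC01578, with log2 fold changes of 4.40, 2.43 and -1.02.

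MALAT1 (ENSG00000251562, chr11:65497640-65508073) had 132 and 486 counts in control and 722 and 589 in USP12 libraries, 9.99 and 26.9 CPM against 52.0 and 40.8 CPM. Both USP12 libraries were higher, but control 1 was well below control 2. MALAT1 had a log2 fold change of 1.33 (SE 0.57, edgeR adjusted p = 0.688), with 2.24 against control 1 alone and 0.79 against control 2 alone. NEAT1 (ENSG00000245532, chr11:65422774-65445540) had 539 and 901 counts in control and 859 and 1243 in USP12 libraries, a log2 fold change of 0.71 (SE 0.39, edgeR adjusted p = 0.823) and one of 0.44 without USP12 replicate 2. In CPM its USP12 libraries, at 61.8 and 86.1, were above its control libraries, at 40.8 and 49.9. The mature 3′ end of MALAT1 and of the long NEAT1 isoform is not a poly(A) tail, so an mRNA library catches only part of these RNAs, and TALAM1 is annotated opposite to MALAT1.

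The proteins of the compartments that these RNAs occupy were compared from lists. Of 32 tested paraspeckle protein genes, 0 were lower and 2 were higher by the criterion (6.25%, with 2.92% of all tested genes), RBM12 (log2 fold change 1.62) and RUNX3 (1.40), both RNA- or DNA-binding proteins, and the median of the list was 0.30. Their USP12 libraries were higher without overlap in 16 of the 32 (19.5% of all tested genes were) and lower in 1 of the 32 (17.0% of all tested genes were), and the median was 0.13 against control 2 alone. None of the 28 tested nuclear speckle genes met the criterion (0 lower and 0 higher), none had an adjusted p under 0.05 from edgeR, and 0 had an unadjusted p under 0.05. The median of that list was 0.15, but it lay between -0.01 and 0.64 when 1 library was left out.

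Levels between genes were compared as CPM per kilobase of the GENCODE 44 canonical transcript, averaged over the 4 libraries. On this scale SNHG16 was the highest member, at 141.6, then GAS5 at 108.2, LINC00493 at 87.9, LINC00963 at 69.2 and SNHG5 at 41.9. MALAT1 and NEAT1, whose transcripts are long, were at 3.11 and 2.62. The order depends on the length chosen, because the counts cover the whole gene. All exons of SNHG16 together span 5776 bp, against 498 bp in its canonical transcript. For GAS5 these lengths were 4932 and 768 bp, for LINC00963 14066 and 1257 bp, and for LINC00493 1098 and 490 bp. SNHG16 had 1200 and 851 counts in control and 905 and 1139 in USP12 libraries, so its groups overlapped, and the log2 fold change was 0.06 (SE 0.45). The abundant LINC00963 (1309 and 1195 against 1268 and 1320 counts) and LINC00511 (583 and 1024 against 802 and 768 counts) had log2 fold changes of 0.14 each, with SEs of 0.38 and 0.37. As a share of all counts, the 96 members took 0.157% and 0.199% in control and 0.175% and 0.177% in USP12 libraries.

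Of the 96 members, 94 were found in GENCODE 44 by identifier, 83 of them as lncRNA, 6 as protein-coding genes and 5 as transcribed pseudogenes. The 6 protein-coding ones, which encode small proteins, were LINC00094 (BRD3OS), LINC00116 (MTLN), LINC00493 (SMIM26), LINC00998 (SMIM30), LINC01207 (SMIM31) and LINC01420 (NBDY, a protein of mRNA decapping bodies). Apart from LINC01207, their log2 fold changes lay between -0.60 and 0.57. LINC01420, with 1438 and 1386 counts in control and 1127 and 1030 in USP12 libraries, had -0.28 (SE 0.38). Exons of another gene overlapped those of 56 members, on the same strand in 23 and on the opposite strand in 43. Whether strand was used in the counting is not given in the sources used here, so counts of these members may include their partners.

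The nearest protein-coding genes give the genomic setting of the members. Of 65 pairs in which the member and its neighbour were both tested, 32 had the same sign of log2 fold change. Both groups of libraries were separate in 14 pairs, 7 of them in the same direction. Across the 65 pairs, which share the same 4 libraries, Pearson's r of the log2 fold changes was 0.34, and across the 31 pairs within 1000 bp it was -0.05. SP9, a zinc finger transcription factor gene 4311 bp from LINC01305, had 175 and 269 counts in control and 877 and 717 in USP12 libraries, a log2 fold change of 2.00 (SE 0.41, edgeR adjusted p = 0.263). EFNB2, which encodes the ligand ephrin-B2 and lies 105430 bp from LINC00460, had 32 and 146 counts in control and 247 and 277 in USP12 libraries, with 1.81 as its log2 fold change (SE 0.66, edgeR adjusted p = 0.570). The value of EFNB2 was 2.96 against control 1 alone and 1.19 against control 2 alone, while that of SP9 was 2.12 and 1.92. In both genes the USP12 libraries were the higher ones, as in LINC01305 and LINC00460. These 2 genes do not stand for the neighbours in general. Of the 64 neighbours tested, 4 were lower by the criterion (6.25%, with 4.41% of all tested genes). Only 2 were higher (3.12%, with 2.92% of all tested genes).

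Other neighbours had smaller log2 fold changes than their LINC RNA when both control libraries were used. FOXA2, an endodermal transcription factor gene 2356 bp from LINC00261, had 97.8 and 101 CPM in control and 129 and 120 CPM in USP12 libraries, a log2 fold change of 0.32 (SE 0.34). MTX2, beside LINC01116, had -0.12 (SE 0.44), and ANXA11, beside LINC00857, had -0.33 (SE 0.41) where the RNA had 1.14. CEBPB, 14154 bp from LINC01273, had 183 and 146 CPM in control and 130 and 106 CPM in USP12 libraries, a log2 fold change of -0.48 (SE 0.35). LINC01273 itself had 102 and 46 counts in control and 35 and 28 in USP12 libraries, a log2 fold change of -1.20. The order of these genes depended on the control, as against control 2 alone LINC01273 had -0.19 and CEBPB had -0.31.

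Long noncoding RNAs with other names were read from a list of 32 tested genes, with a median log2 fold change of 0.33. By the criterion 1 was lower (3.12%) and 4 were higher (12.5%), where 4.41% of all tested genes were lower and 2.92% higher. Of the tested genes listed as lncRNA, 1.95% were lower and 5.68% higher. NKILA, an RNA induced by NF-κB that holds its inhibitor IκB in place, had 23 and 6 counts in control and 157 and 139 in USP12 libraries, a log2 fold change of 3.36 (SE 0.86, edgeR adjusted p = 0.331). TINCR, known from epidermal differentiation, had 263 and 45 counts in control and 10 and 25 in USP12 libraries, a log2 fold change of -3.18 overall and -1.01 against control 2 alone. Of 20 tested imprinted genes, 0 were lower and 2 were higher by the criterion, MEG3 and IGF2, and the median of that list was -0.12. IGF2, the growth factor gene beside H19, had 406 and 139 counts in control and 1835 and 2066 in USP12 libraries, a log2 fold change of 2.84 (SE 0.69, edgeR adjusted p = 0.315), while H19 had no counts.

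Genes that share a function with the SNHG RNAs were read from 3 more lists, in each of which members pointed both ways. By the criterion 4.41% of all tested genes were lower and 2.92% higher. Of 25 other snoRNA host genes, 0 were lower and 1 was higher (4.0%), with a list median of 0.01. The higher one was HSPA8, the constitutive chaperone gene (395 and 238 CPM in control, 1361.5 and 873 CPM in USP12 libraries). Of 20 snoRNP protein genes, 0 were lower and 0 higher, none had an adjusted p under 0.05 from edgeR, 0 had an unadjusted p under 0.05, and the median was -0.05. SNU13, which binds the guide RNA of box C/D particles, had 1076 and 1028 counts in control and 556 and 426 in USP12 libraries, a log2 fold change of -0.99 (SE 0.41). Of 25 nonsense-mediated decay genes, whose pathway degrades many spliced host RNAs, 0 were lower and 1 was higher (4.0%), with a median of 0.01. The higher one was SMG8 (log2 fold change 1.45, SE 0.58, and 0.94 against control 1 alone). Leaving out 1 library moved the medians of these lists to between -0.20 and 0.54, the highest for the snoRNP and decay genes without control 2.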

How the data were processed

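RNA of 2 control and 2 USP12-overexpressing A549 libraries was measured as deposited raw counts per gene. The authors prepared stranded mRNA libraries, filtered adaptors and ribosomal reads with Seqtk, mapped reads to GRCh38 with Hisat2 2.0.4 and counted uniquely mapped fragments with Stringtie 1.3.0. The annotation release and strand setting are not given in the sources used here. From the counts, 15222 genes passing filterByExpr were tested in R 4.3.3 with edgeR 4.0.16 (TMM, quasi-likelihood test, Benjamini-Hochberg adjustment over all genes), using only the 4 libraries and no covariate. SEs are approximate (fold change over the root of F), and the prior count for log2 CPM was 2. The script was tested on simulated data. Positions came from GENCODE 44 by identifier and sequences from RefSeq GRCh38.p14 by symbol (79 members matched, 3 left out because the start lay over 5000 bp outside the gene).

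The members and lists were chosen with earlier results of these data known. Genes named were USP12, the singly named RNAs, every SNHG member, the 10 LINC members with the largest difference in each direction among those whose groups do not overlap, the 5 most abundant, their neighbours, and the 2 extreme genes per list and direction. Any other member given by name was picked with its values known. Alternatives were DESeq2 1.42.0 size factors and Wald test, the exact test, other filters, the replicate number as a block, and leaving out each library. The result of 1 marker gene is not reported here.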

Additional observations from a re-analysis of the deposited data

How the results depend on the processing

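With edgeR's quasi-likelihood test, 0 members and 0 genes in all had an adjusted p under 0.05 in either direction (11 members and 1155 genes at an unadjusted p under 0.05), also under DESeq2's size factors and the filter that requires 10 counts in every sample. Without a filter on low counts 361 genes were lower and 167 higher, with 2 and 4 members among them. The DESeq2 Wald test gave 277 and 133 (members 0 and 4), and the edgeR exact test 262 and 167 (members 1 and 4). The groups share replicate numbers, but same-numbered libraries deviated together only weakly (correlation across genes 0.152), and 2 numbers are too few to show a pairing. With the replicate number as a block there were 251 lower and 153 higher genes, and the members among them were LINC00460 (adjusted p = 0.00549), MEG3 (0.00840) and LINC01508 (0.0482, all from edgeR), 3 higher and 0 lower. In that fit the spread of a single gene did not enter, as its variance was set by the trend. The block moved the median of the members to 0.19, of the LINC RNAs to 0.17, of the other named long noncoding RNAs to 0.53 and of the neighbours to 0.024. USP12 passed 0.05 without a filter (6.33), with DESeq2 (6.31), the exact test (6.32) and the block (6.43). With at least 10 counts in every sample, members higher by the criterion were 5, and the median of the other named long noncoding RNAs was 0.19.

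Of 506 values of the 86 named genes under alternatives that keep all libraries, 468 kept direction and side of 0.05, 35 passed 0.05 in the alternative alone, and 3 turned sign, SNHG1 (0.052) and NTMT1 (0.037) with the block and CNBD2 (0.013) without a filter. Their cause was not tested. Leaving out 1 library moved more. Counts at an adjusted p under 0.05 ranged from 12 to 2550 higher and 28 to 2612 lower genes, and from 0 to 20 higher and 0 to 10 lower members, the most without control 2 (20 and 10) and then without control 1 (7 and 3), and 0 and 0 without either USP12 library. A lone library is then assumed to vary like the other group. Members by the criterion ranged from 3 to 20 higher and 1 to 9 lower, and members without overlap from 35 to 49 higher and 19 to 35 lower, as a group of 1 separates more often. Medians ranged from 0.12 to 0.34 for the members, 0.081 to 0.33 for the LINC RNAs, 0.080 to 0.45 for the SNHG RNAs with GAS5, 0.30 to 0.59 for other named long noncoding RNAs, -0.20 to 0.39 for other snoRNA hosts, -0.082 to 0.54 for snoRNP proteins, 0.13 to 0.67 for paraspeckle, -0.0075 to 0.64 for speckle and -0.13 to 0.53 for decay genes, -0.088 to 0.23 for imprinted genes and -0.031 to 0.16 for neighbours. USP12 ranged from 5.85 to 7.06. The sign of 25 named genes turned in at least 1 such fit. On the log2 scale these ranged, for members, SNHG1 -0.75 to 0.90, SNHG7 -1.06 to 0.61, SNHG11 -0.49 to 0.24, SNHG16 -0.31 to 0.61, SNHG20 -2.002 to 0.33, LINC00657 -0.97 to 0.86, LINC00963 -0.088 to 0.47, LINC00511 -0.031 to 0.36, and for other genes, MTX2 -0.30 to 0.046, ANXA11 -0.67 to 0.18, GRIN2B -2.16 to 0.41, CHD2 -1.14 to 0.13, VCPKMT -0.20 to 0.34, FAM207A -0.67 to 0.32, CNBD2 -0.41 to 0.33, NTMT1 -0.45 to 0.57, SPIN3 -0.095 to 1.06, KCNQ1OT1 -1.67 to 0.75, EEF2 -1.20 to 0.15, RPL13A -1.14 to 0.21, ZNHIT6 -1.90 to 0.54, BCLAF1 -1.15 to 0.60, CLK3 -0.76 to 0.63, SMG1 -1.52 to 0.53, MAGOHB -1.23 to 0.36. The depth limits members near 3 counts, such as LINC00460, LINC01305 and LINC01559, whose folds rest on few reads in 1 group.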
